A study of Homo sapiens with 7 samples.

Results

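The ERBB receptors and their ligands of the EGF family were described in 7 genome-wide expression arrays of clones of the human line Panc1, established from a cancer of the pancreas. The members were 10 genes chosen by name, the receptors EGFR, ERBB2, ERBB3 and ERBB4 and the ligands HBEGF, EREG, AREG, TGFA, BTC and NRG1, and every probe set that the platform annotation gives to 1 of these symbols alone was used. That rule found 38 of 54613 probe sets, for 9 of the 10 genes: 9 probe sets for EGFR, 6 for NRG1, 5 for ERBB3, 4 each for ERBB4 and HBEGF, 3 each for ERBB2 and TGFA, and 2 each for EREG and BTC. AREG was not analysed here. The S100P-labelled arm held 4 arrays of cells stably transfected with pcDNA3.1 carrying S100P with a V5-His tag, 2 arrays (a and b) of clone 1 and 2 of clone 5. The vector arm held 3 arrays of cells with the same plasmid without S100P, 2 of clone V3 and 1 of clone V1. Every clone was grown from a single cell in medium with serum and carried the plasmid backbone, so each arm is modelled by 2 clones and not by a mixed population. The study asked which genes S100P, a small calcium-binding protein, regulates.

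ERBB receptors are tyrosine kinases of the cell surface that pair with each other when a ligand binds. EGFR binds EGF, TGF-alpha, amphiregulin, HB-EGF, betacellulin and epiregulin, ERBB3 and ERBB4 bind the neuregulins, and ERBB2 has no known ligand of its own and acts as a partner. The ligands are made as membrane proteins and released by proteases such as ADAM17. The active receptors feed the RAS-ERK and PI3K-AKT relays, and EGFR and its ligands are commonly expressed in pancreatic cancer.

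Values are deposited RMA values, used as log2, so a difference of 1 is a 2-fold difference. Levels of different probe sets are not comparable, and every test is of 1 probe set between arrays. Summed levels of marker lists are given to describe the arrays, and are to be read across arrays within a list. Array medians lay between 4.51 and 4.58. Of the 38 probe sets, 15 had a mean of at least 5, from 7 of EGFR, 5 of NRG1, 2 of HBEGF and 1 of ERBB2. The probe set of highest mean represents a gene. The 6 markers of ductal epithelium (among them KRT7, KRT19 and EPCAM) had means from 6.64 to 13.17, and their summed level ran from 13.34 to 14.22 on the log2 scale in the S100P-labelled arm and from 14.05 to 14.63 in the vector arm. That sum rests mostly on the brightest probe sets. Between the arms KRT8, KRT7, KRT19 and KRT18 differed by -0.95, -0.87, -0.63 and -0.55, EPCAM by 0.02 and CDH1 by 2.23 (none called). Of 20 measured markers of leukocytes, fibroblasts, endothelium, acinar and endocrine cells, 3 had a mean of at least 5, and the summed level of each list lay between 4.68 and 7.85. The S100P probe set read 5.36 to 5.95 in the S100P-labelled arm and 4.65 to 6.01 in the vector arm (0.27 in log2, SE 0.32, adjusted p = 0.846 with limma), so it did not separate the arms and directions below are those of the labels. V1 is 1 array whose description has another prefix than the other 6, so what is due to the clone cannot be told apart from any separate handling. In bulk RNA, fewer cells with a transcript and less of it per cell cannot be told apart.

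None of the 38 probe sets passed the limma test between the arms at an adjusted p of 0.05, where 1.12% of all probe sets did. Nor did any of the 15 with a mean of at least 5, where 2.21% of all such probe sets did. At an unadjusted p under 0.05 there were 8, which is 21.1% against 11.8% of all probe sets. The median log2 difference was 0.02 over the member probe sets and 0.00 over all. The clones within each arm, in contrast, differed at several members. At some of their probe sets only, HBEGF, NRG1, ERBB3 and EGFR were called lower in clone 5 than in clone 1. Likewise at some probe sets only, EGFR, NRG1, EREG and HBEGF were called higher in V1 than in V3, and ERBB2 and ERBB3 lower. At EGFR 224999_at and 201984_s_at V1 minus V3 was 0.01, and the representative HBEGF probe set was not called there. The called ERBB3 probe sets had means of 4.25 and 3.64, and the called EREG probe set had a mean of 4.79.

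**Figure D1:**
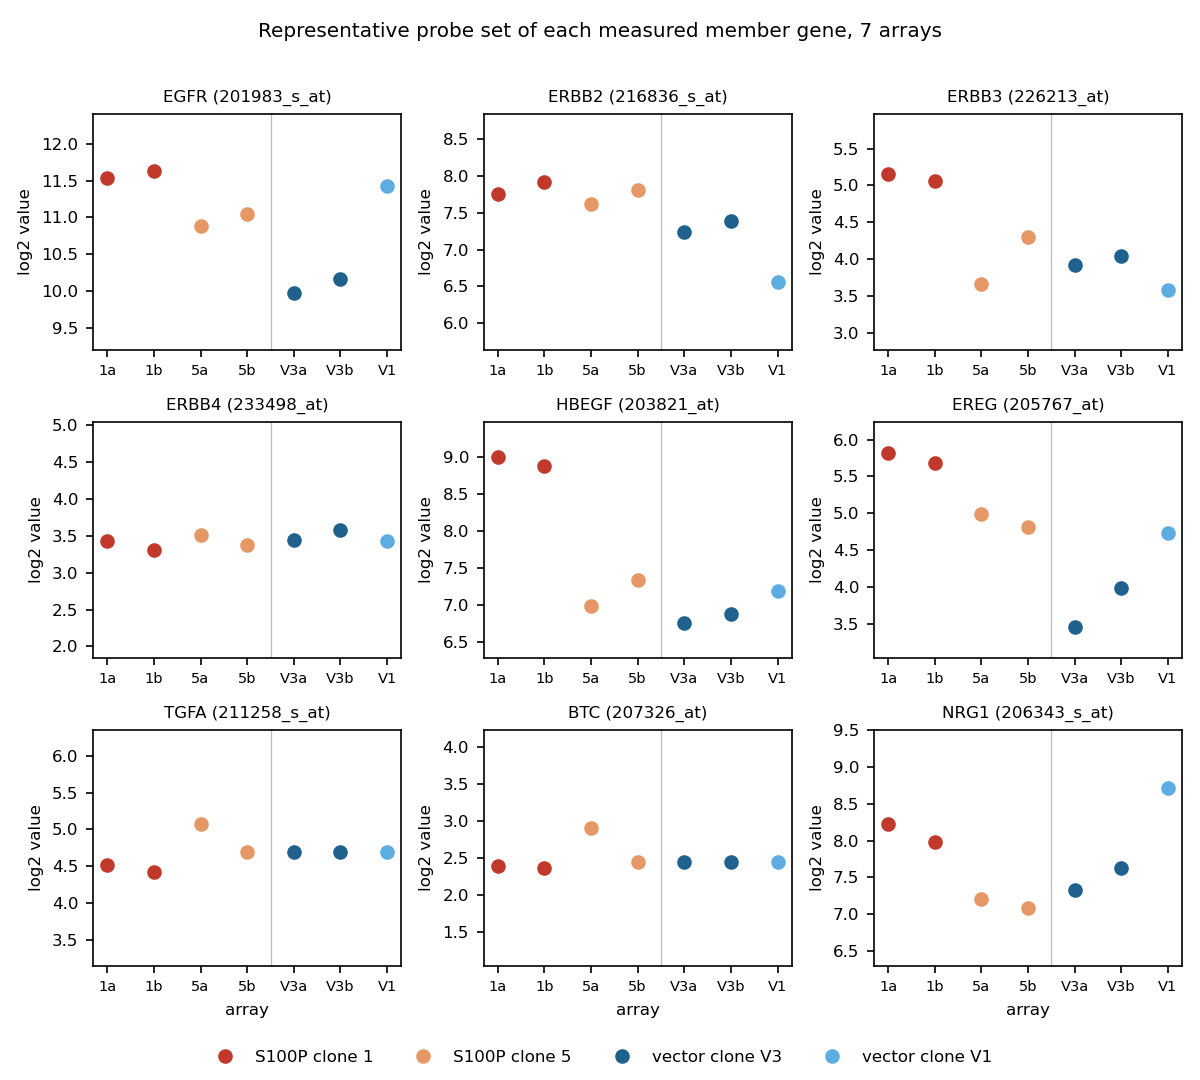
Log2 value of the representative probe set of each of the 9 measured genes on the 7 arrays (x axis; 1a to 5b are S100P-labelled, V3a to V1 are vector arrays), each panel spanning the same 3.2 log2 units. HBEGF stood at 9.01 and 8.88 on clone 1 and between 6.75 and 7.34 elsewhere, EGFR was lowest on V3, and ERBB4, TGFA and BTC stayed within 0.66.

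HBEGF encodes heparin-binding EGF-like growth factor, a ligand of EGFR and ERBB4 whose gene is switched on early after ERK activation. Its representative probe set, 203821_at, gave 9.01 and 8.88 in clone 1, 6.99 and 7.34 in clone 5, 6.75 and 6.88 in V3, and 7.19 in V1. Clone 1 was high, and clone 5 overlapped the vector arrays. The second bright HBEGF probe set, 38037_at, gave 7.88 and 7.93 in clone 1, 6.81 and 6.81 in clone 5, 6.0 and 6.21 in V3, and 6.71 in V1. Here all 4 S100P-labelled arrays were above all vector arrays, by 0.10 at the nearest. In clone 5 HBEGF was 3.43-fold lower than in clone 1 at 203821_at (-1.78 in log2, SE 0.13, adjusted p = 0.00227 with limma, 2 against 2 arrays) and 2.14-fold lower at 38037_at (-1.10, SE 0.10, adjusted p = 0.00496). Between the arms 203821_at differed by 1.09 (SE 0.48, limma adjusted p = 0.424) and 38037_at by 1.01 (SE 0.33, adjusted p = 0.248). Those differences turned on clone 1. Without it they were 0.27 and 0.56, and without clone 5 they were 2.02 (limma adjusted p = 0.00973) and 1.61 (adjusted p = 0.0326). The dim HBEGF probe sets 244857_at and 222076_at had means of 4.44 and 3.87 and did not follow the bright ones (r = -0.88 and -0.46 with 203821_at over the 7 arrays, against 0.96 for 38037_at, given as a description).

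A measure of RNA quality also set clone 1 apart. The 3' minus 5' log2 difference of the ACTB control was 0.53 and 0.44 on clone 1, 0.27 to 0.32 on clone 5 and V3, and 0.18 on V1. That of GAPDH was 0.06 to 0.08 on clones 1 and 5, 0.09 and 0.14 on V3 and 0.01 on V1. The part of RNA quality in the differences between clones was not tested.

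EREG encodes epiregulin, a ligand of EGFR and ERBB4. Its probe set 205767_at gave 5.82 and 5.68 in clone 1, 4.99 and 4.81 in clone 5, 3.46 and 3.99 in V3, and 4.74 in V1. All S100P-labelled arrays were above all vector arrays, but array 5b and V1 were only 0.07 apart. The difference between the arms was 1.20 (SE 0.36, 95% interval 0.39 to 2.02, limma adjusted p = 0.2), and it was called only when the V1 array was left out (1.6, adjusted p = 0.0463). Without clone V3 it was 0.58. Readings on V3 lay below those arrays' medians of 4.51 and 4.52 and are not shown to be above background. Differences that include V3 are therefore not exact. EREG was 2.03-fold higher in V1 than in V3 (1.02 in log2, SE 0.21, adjusted p = 0.0408 with limma, 1 against 2 arrays). Clone 5 differed from clone 1 by -0.85 (SE 0.18, adjusted p = 0.0624), which was called when arrays were centred on their medians (-0.89, adjusted p = 0.0332). The other EREG probe set, 1569583_at, ranged over 0.23.

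The 250 bases before the annotated starts of HBEGF, EREG and EGFR are shown because each was highest on clone 1 and lowest on V3 at its representative probe set. By mean, clone 5 lay above V1 at EREG and below it at EGFR and HBEGF, so the full order was not shared. Over the 7 arrays EGFR and EREG correlated at r = 0.92, EREG and HBEGF at 0.86 and EGFR and HBEGF at 0.77, as a description of 7 arrays from 4 clones. HBEGF also correlated with ERBB3, at 0.92. The sequences are RefSeq's on GRCh38.p14, read in the direction of transcription, and no window was marked for ERBB3 or NRG1. Capitals mark matches on either strand to 6 motifs. The letters searched were TATAAA for the TATA box and GGGCGG for the GC box. An AP-1 site was TGANTCA. The cAMP response element was TGACGTCA. The CCAAT box and the CArG box were searched too. HBEGF is chr5:140346604-140346853 on the minus strand, EREG chr4:74364895-74365144 on the plus strand, and the EGFR starts, numbered 1 and 2, chr7:55018767-55019016 and chr7:55109589-55109838 on the plus strand.
HBEGF: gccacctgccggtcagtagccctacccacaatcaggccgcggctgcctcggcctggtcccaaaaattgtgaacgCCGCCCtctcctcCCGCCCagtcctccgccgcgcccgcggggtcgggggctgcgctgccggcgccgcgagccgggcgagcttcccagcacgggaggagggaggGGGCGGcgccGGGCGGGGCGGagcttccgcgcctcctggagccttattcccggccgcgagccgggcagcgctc
EREG: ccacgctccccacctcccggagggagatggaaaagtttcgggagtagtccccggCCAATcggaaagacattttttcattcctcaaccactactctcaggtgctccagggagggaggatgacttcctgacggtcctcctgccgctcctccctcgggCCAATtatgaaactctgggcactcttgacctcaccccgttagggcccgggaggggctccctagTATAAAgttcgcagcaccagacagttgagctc
EGFR start 1: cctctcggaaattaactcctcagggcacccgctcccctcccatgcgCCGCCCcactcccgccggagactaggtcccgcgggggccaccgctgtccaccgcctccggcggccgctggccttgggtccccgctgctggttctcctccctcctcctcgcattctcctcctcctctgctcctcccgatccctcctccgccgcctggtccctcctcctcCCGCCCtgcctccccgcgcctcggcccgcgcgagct
EGFR start 2: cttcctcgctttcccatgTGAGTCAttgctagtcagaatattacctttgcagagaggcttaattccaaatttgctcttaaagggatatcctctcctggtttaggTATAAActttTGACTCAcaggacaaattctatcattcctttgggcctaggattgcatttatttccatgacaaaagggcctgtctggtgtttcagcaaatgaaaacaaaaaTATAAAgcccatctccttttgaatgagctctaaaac

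The HBEGF window held 5 GC boxes, of which those 63 and 58 bases before the start overlap, and EGFR start 1 held 2. A GC box was in 42.6% of the 35116 windows of that length. EREG held a TATA box 32 bases before its start and 2 CCAAT boxes, found in 10.7% and 32.0% of windows. EGFR start 2 held 2 TATA boxes and 2 AP-1 sites, 232 and 136 bases before the start, and an AP-1 site was in 6.57% of windows. The letters of the cAMP response element (1.65% of windows) and of the CArG box (1.16%) were in none of these 4 windows. No motif was common to all of them, and a match is a description of the letters only.

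NRG1 encodes neuregulin 1, a ligand of ERBB3 and ERBB4 made in many isoforms. Its probe sets fell into different patterns. The representative, 206343_s_at, gave 8.22 and 7.98 in clone 1, 7.21 and 7.09 in clone 5, 7.33 and 7.63 in V3, and 8.71 in V1. V1 was highest, and the arms overlapped. It was 2.35-fold higher in V1 than in V3 (1.24 in log2, SE 0.16, adjusted p = 0.00943 with limma) and 1.93-fold lower in clone 5 than in clone 1 (-0.95, SE 0.13, adjusted p = 0.0203). Probe set 208241_at was also higher in V1, at 6.0 against 4.94 and 4.94 on V3 (2.09-fold, SE 0.10 in log2, limma adjusted p = 0.00347), while the S100P-labelled arrays lay between 4.81 and 5.09.

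Of all members, 2 other NRG1 probe sets came nearest to a call between the arms. Probe set 206237_s_at gave 5.72 and 5.80 in clone 1, 5.46 and 5.43 in clone 5, 6.26 and 6.41 in V3, and 6.11 in V1. Probe set 208230_s_at gave 5.41 and 5.49 in clone 1, 5.12 and 5.11 in clone 5, 5.82 and 5.74 in V3, and 6.07 in V1. At both, every S100P-labelled array was below every vector array. The differences were -0.64 (SE 0.13, 95% interval -0.93 to -0.35, limma adjusted p = 0.0604) and -0.61 (SE 0.13, interval -0.92 to -0.30, adjusted p = 0.0862). The first was called without the clone block (adjusted p = 0.0359), after another quantile normalization (0.0336), without V1 (0.0317) and without clone 1 (0.0270), and the second without clone 1 (0.0480), in limma fits. When the arrays of a clone were averaged, the first had an adjusted p = 0.488 with limma. Probe sets 208232_x_at and 208231_at, with means of 6.64 and 3.07, differed by -0.03 and 0.04. At 206343_s_at the difference of -0.33 (SE 0.39) turned to 0.15 without V1 and 0.25 without clone 5.

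TGFA and BTC encode the EGFR ligands TGF-alpha and betacellulin. All 5 of their probe sets had means from 2.42 to 4.69, near or below the array medians. The TGFA probe set 211258_s_at read 4.70 on 5b and on all 3 vector arrays, 4.52 and 4.42 on clone 1 and 5.08 on 5a. The BTC probe set 207326_at read 2.45 on 5b and on all 3 vector arrays, 2.39 and 2.36 on clone 1 and 2.91 on 5a. Differences between the arms were -0.02 (SE 0.16, 95% interval -0.39 to 0.35) for TGFA and 0.08 (SE 0.16, interval -0.28 to 0.44) for BTC. No probe set of either gene was called in any of the 3 comparisons.

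EGFR, the receptor of most of these ligands, had 9 probe sets that did not move alike. The representative, 201983_s_at, gave 11.53 and 11.63 in clone 1, 10.88 and 11.05 in clone 5, 9.98 and 10.17 in V3, and 11.43 in V1. Clone 1 and V1 were high and V3 was low, and V1 lay between the S100P-labelled clones, so the arms overlapped. EGFR was 2.55-fold higher in V1 than in V3 (1.35 in log2, SE 0.14, adjusted p = 0.00398 with limma, 1 against 2 arrays). It was 1.53-fold lower in clone 5 than in clone 1 (-0.61, SE 0.11, adjusted p = 0.0424). The difference between the arms, 0.67 (SE 0.36, limma adjusted p = 0.543), was 1.19 without V1 (adjusted p = 0.0372) and -0.15 without clone V3.

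At 2 other bright EGFR probe sets V1 was the highest array. Probe set 211607_x_at gave 7.25 and 7.22 in clone 1, 7.23 and 7.04 in clone 5, 6.60 and 6.51 in V3, and 7.95 in V1, and 210984_x_at gave 7.53 to 7.81 in the S100P-labelled arm, 6.97 and 7.05 in V3, and 8.26 in V1. The S100P-labelled arrays thus lay between the vector clones at both. In V1 they were 2.64-fold and 2.38-fold higher than in V3 (limma adjusted p = 0.00244 and 0.00496). Between the arms they differed by 0.08 (SE 0.33) and 0.10 (SE 0.30). At 211607_x_at this was 0.63 without V1 (limma adjusted p = 0.0145) and -0.77 without clone V3 (adjusted p = 0.0457), both called and opposite in sign. At 210984_x_at it was 0.59 (adjusted p = 0.0305) and -0.66 (adjusted p = 0.0894).

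The EGFR probe sets 201984_s_at and 224999_at, with means of 9.18 and 9.37, did not show the contrast of V1 with V3. Probe set 201984_s_at gave 9.66 and 9.62 in clone 1, 8.97 and 9.19 in clone 5, 8.86 and 9.0 in V3, and 8.94 in V1, and V1 minus V3 was 0.01 (SE 0.13). Probe set 224999_at gave 9.50 and 9.60 in clone 1, 9.23 and 9.17 in clone 5, 9.33 and 9.39 in V3, and 9.37 in V1, and V1 minus V3 was 0.01 (SE 0.11). Both were highest on clone 1. Without clone 5, 201984_s_at was called higher in the S100P-labelled arm (0.71, limma adjusted p = 0.0186), and clone 5 minus clone 1 was -0.56 (SE 0.11, adjusted p = 0.0543). Probe sets 1565483_at and 1565484_x_at, with means of 5.99 and 5.93, ran against the representative (r = -0.70 and -0.68 over the 7 arrays, as a description). The remaining 211551_at and 211550_at were dim, with means of 4.22 and 3.93, and were also highest in V1. Which transcripts each probe set reads is not given in the sources used here. Suffixes _s_at and _x_at mark probe sets that can read more than 1 transcript, and with _x_at these need not be of the same gene. The difference between probe sets was not tested.

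**Figure D2:**
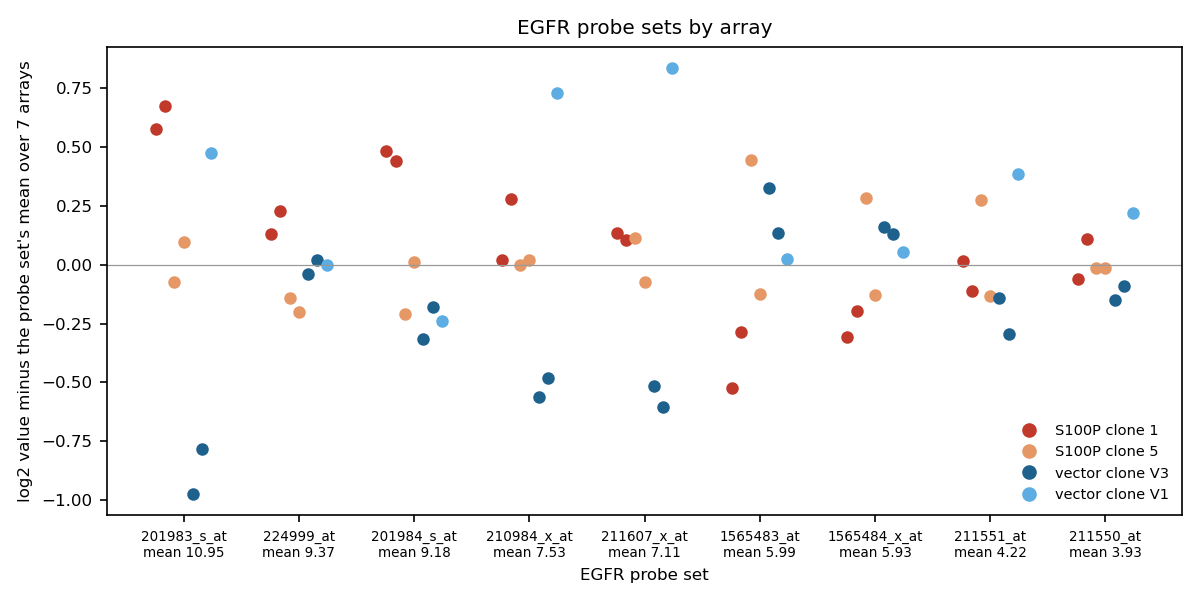
Log2 value on each array minus that probe set's own mean over the 7 arrays, for the 9 EGFR probe sets (x axis, in order of mean), with points coloured by clone. V1 was 1.35, 1.25 and 1.40 above the V3 mean at 201983_s_at, 210984_x_at and 211607_x_at and 0.01 above it at 224999_at and 201984_s_at.

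ERBB2, the partner receptor, had 1 bright probe set, 216836_s_at. It gave 7.76 and 7.92 in clone 1, 7.62 and 7.81 in clone 5, 7.24 and 7.39 in V3, and 6.56 in V1. All S100P-labelled arrays were above all vector arrays, and clone 5 minus clone 1 was -0.13 (SE 0.11). The difference between the arms was 0.76 (SE 0.20, 95% interval 0.29 to 1.22, limma adjusted p = 0.154). It was 0.46 without V1 and 1.21 without clone V3, and of these only the latter was called (adjusted p = 0.0325). ERBB2 was 1.68-fold lower in V1 than in V3 (-0.75 in log2, SE 0.14, adjusted p = 0.0275 with limma). The dim ERBB2 probe sets 234354_x_at and 210930_s_at differed between the arms by 0.15 (SE 0.11) and -0.07 (SE 0.16).

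ERBB3, which has little kinase activity of its own and signals with ERBB2, was dim at all 5 probe sets, with means from 3.41 to 4.25. Its representative, 226213_at, gave 5.16 and 5.06 in clone 1, 3.66 and 4.30 in clone 5, 3.92 and 4.04 in V3, and 3.58 in V1. Clone 1 was high and clone 5 spread over the range of the vector arrays. It was 2.18-fold lower in clone 5 than in clone 1 (-1.13 in log2, SE 0.19, adjusted p = 0.0376 with limma), and the arms differed by 0.72 (SE 0.35, adjusted p = 0.482). Without clone 5 the arms differed by 1.25 (adjusted p = 0.0262). Probe set 202454_s_at gave 4.0 and 3.94 in clone 1, 3.72 and 3.77 in clone 5, 3.60 and 3.44 in V3, and 2.98 in V1. Its arms did not overlap, and the difference was 0.55 (SE 0.16, limma adjusted p = 0.2). Without clone V3 it was 0.88 (adjusted p = 0.0482). It was 1.46-fold lower in V1 than in V3 (adjusted p = 0.0432). The other 3 ERBB3 probe sets, 1563253_s_at, 1563252_at and 215638_at, differed between the arms by 0.07, 0.07 and -0.17. The means of all 5 lay below the array medians, where RMA can compress differences.

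ERBB4, a neuregulin receptor, read between 2.74 and 3.58 at its 4 probe sets on all arrays. Its representative, 233498_at, differed between the arms by -0.07 (SE 0.10, 95% interval -0.29 to 0.15, limma adjusted p = 0.872). The 206794_at probe set was lower on all S100P-labelled arrays (2.75 to 2.91) than on all vector arrays (2.94 to 3.17), by -0.17 (SE 0.10, adjusted p = 0.597). No ERBB4 probe set was called in any of the 3 comparisons.

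**Figure D3:**
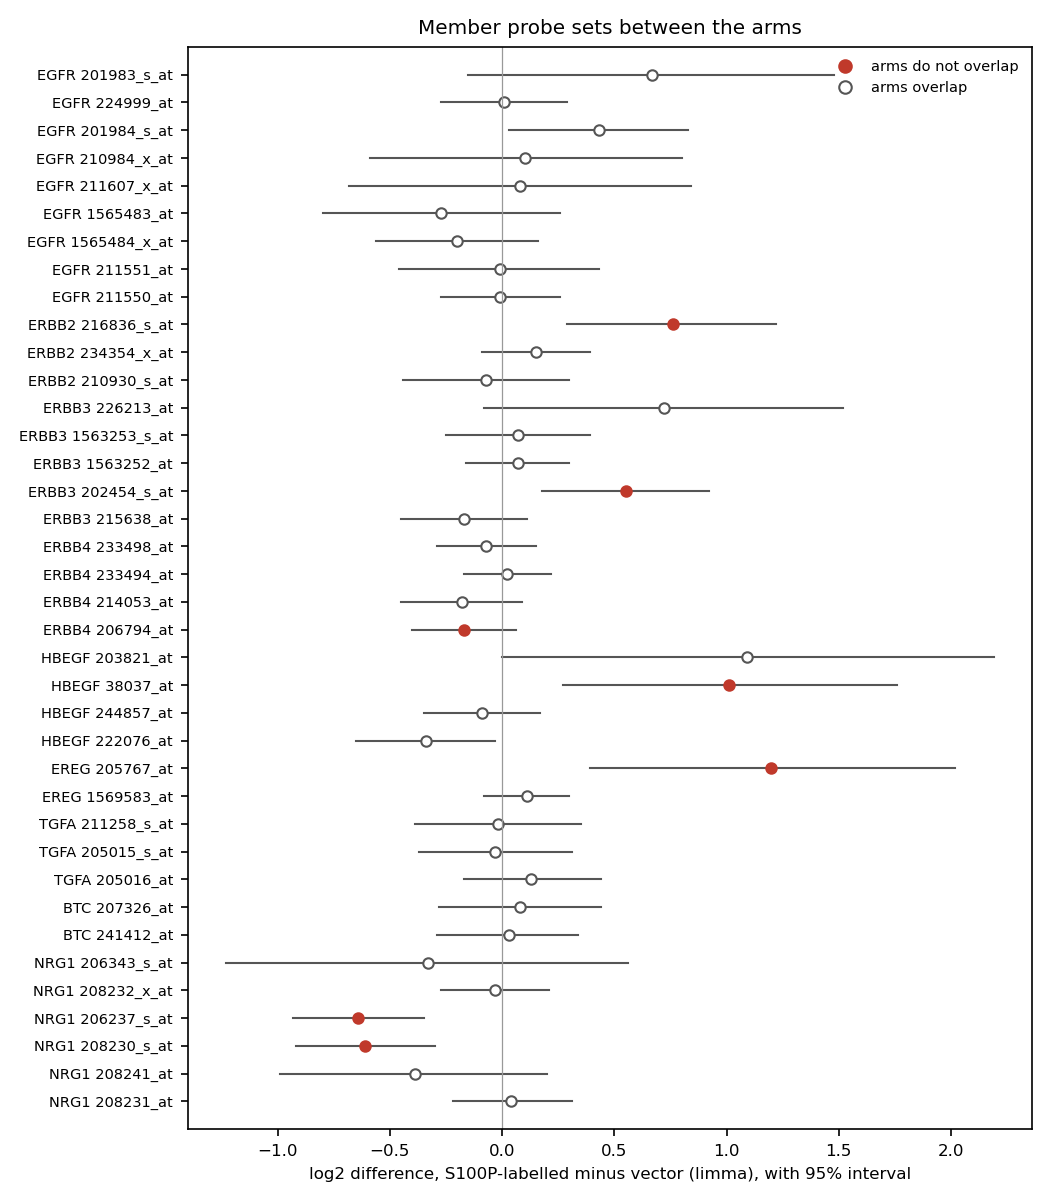
Log2 difference of the S100P-labelled minus the vector arm (x axis, limma with clone as a random block) with its 95% interval for the 38 member probe sets (y axis); filled points mark probe sets whose arms do not overlap. The 4 filled points above 0 are ERBB2 216836_s_at, ERBB3 202454_s_at, HBEGF 38037_at and EREG 205767_at, and the 3 below 0 are ERBB4 206794_at and NRG1 206237_s_at and 208230_s_at.

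Counted over the family, 4 of the 38 probe sets (10.5%) were higher on all S100P-labelled arrays than on all vector arrays, as were 6.74% of all probe sets. Another 3 (7.89%) were lower on all of them, as were 4.63% of all. Between the S100P-labelled clones 5 member probe sets (13.2%) were called, all lower in clone 5: both bright HBEGF probe sets, EGFR 201983_s_at, ERBB3 226213_at and NRG1 206343_s_at. Of all probe sets 2.19% were called there, and 876 of those 1195 were lower in clone 5. Between the vector clones 9 (23.7%) were called, where 5.85% of all were. Of these, 7 were higher in V1, namely EGFR 201983_s_at, 210984_x_at and 211607_x_at, NRG1 206343_s_at and 208241_at, HBEGF 38037_at and EREG 205767_at. The lower ones were ERBB2 216836_s_at and ERBB3 202454_s_at. Called probe sets are more frequent at higher signal. Among probe sets with a mean of at least 5, 4 of 15 members were called between the S100P-labelled clones and 7 of 15 between the vector clones, against 4.22% and 11.5% of all such probe sets. By gene, 4 of 9 representatives were called in each comparison, against 3.02% and 7.72% of 19775 genes. Probe sets of 1 gene are not independent. Members were also chosen with earlier results of these data known. A share above that of all probe sets or genes is therefore a description only. These tests use the spread between arrays of 1 clone, with 3 residual degrees of freedom, so they compare these clones and not conditions. They were lost when an array of clone 1 or V3 was left out, and between clones 5 and 1 also when an array of clone 5 was. No probe set on the array was called in those fits, while 9 to 19 member probe sets had an unadjusted p under 0.05 with limma. V1 minus V3 gave 4 calls among members without an array of clone 5, where 1.66% of all probe sets were called. Of the 6 ductal markers, KRT8, KRT18 and KRT19 were called higher in clone 5 than in clone 1. EPCAM and CDH1 were lower there, by -0.43 and -0.36 in log2, and were not called. CDH1, KRT8 and KRT19 were called lower in V1 than in V3. Of the 4 leukocyte markers, CD14 was called higher in clone 5 than in clone 1 (0.74 in log2, adjusted p = 0.0156 with limma), at levels of 3.79 to 4.64. The part of these markers in the differences of the members was not tested.

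**Figure D4:**
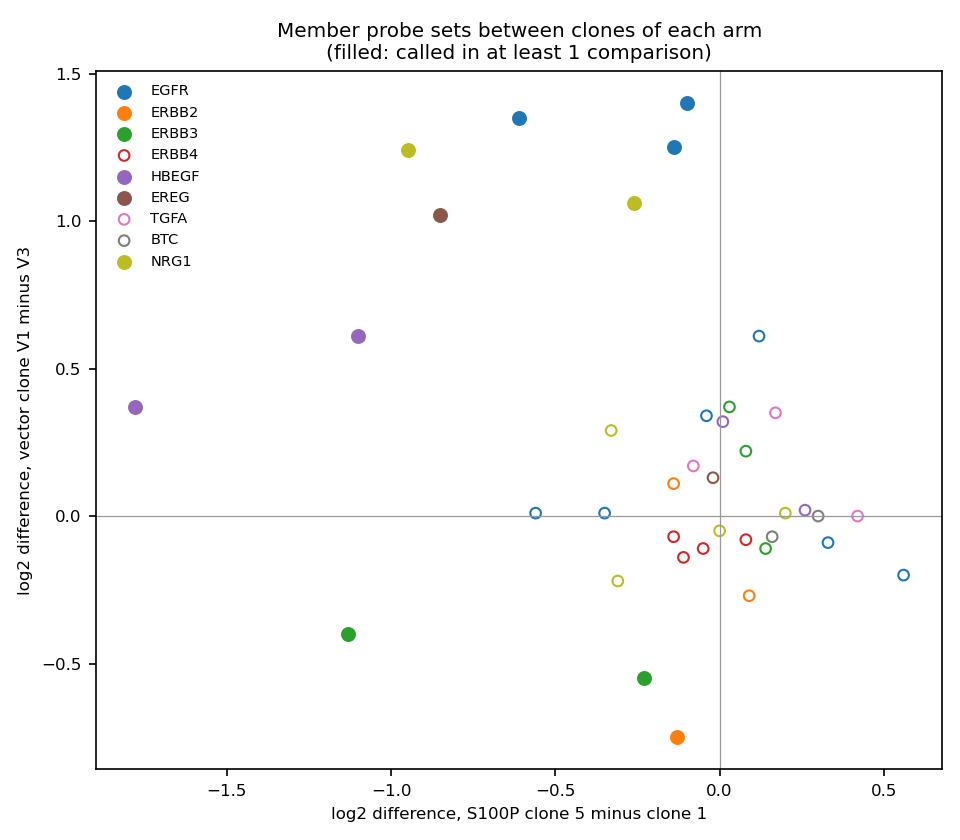
Log2 difference of clone 5 minus clone 1 (x axis) and of V1 minus V3 (y axis) for the 38 member probe sets, coloured by gene and filled where limma called at least 1 of the comparisons. The called EGFR, NRG1, EREG and HBEGF points lie at the upper left, from -1.78 to -0.10 on the x axis and from 0.37 to 1.40 on the y axis, and the called ERBB2 and ERBB3 points at the lower left.

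Other genes of the pathway were read from 7 lists, of which 73 of 84 genes were measured, at 1 probe set each. No gene passed between the arms (limma), where 1.55% of all genes did. At an unadjusted p under 0.05 there were 21, which is 28.8% against 15.1% of all genes. Most of these pathway genes had a mean of at least 5, and among all probe sets with such a mean the share was 21.3%. The median log2 difference was 0.03, against 0.00 over all genes. As values of the largest difference in each list, NRG2, another neuregulin, differed by -0.35 (SE 0.13), RHBDF1, which helps ADAM17 traffic, by 0.84 (SE 0.16, limma adjusted p = 0.0558), and the ubiquitin ligase CBLB by 1.36 (SE 0.50). The ERK phosphatase DUSP6 differed by 0.96 (SE 0.36), the adaptor GAB1 by -0.56 (SE 0.19), the PI3K subunit PIK3R1 by -0.59 (SE 0.33) and the early gene EGR1 by 1.95 (SE 0.79). RHBDF1 was called without the clone block (adjusted p = 0.0385) and without V1 (0.65, adjusted p = 0.0442), GAB1 without V1 (-0.78, adjusted p = 0.0347) and CBLB without clone V3 (2.63, adjusted p = 0.0310), in limma fits.

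Between clones, genes known to answer to ERK were among those called. In clone 5, 3 of 8 ERK feedback genes and 4 of 10 early targets were called lower than in clone 1, and none was called higher. Of all genes 3.02% were called there, and 464 of those 597 were lower in clone 5. DUSP5 was 3.18-fold lower (limma adjusted p = 0.00104), DUSP6 1.94-fold and SPRY2, an inhibitor of receptor signalling, 1.71-fold. EGR1 was 3.58-fold lower (adjusted p = 0.00115), JUN 2.99-fold, MYC 1.95-fold and FOSL1 1.81-fold. These genes, chosen after their values were seen, encode transcription factors. Of 16 genes of receptor feedback and turnover, ERRFI1, an inhibitor that binds the EGFR kinase, was 1.48-fold lower (adjusted p = 0.0264) and CBLB 1.46-fold lower. PIK3R1 was 2.18-fold higher (adjusted p = 0.00651). The medians were -0.49 for ERK feedback and -0.54 for early targets, against 0.02 over all genes. As the lists were chosen with earlier results of these data known, these shares and medians are descriptions. None of 10 genes of ligand release, 12 of the adaptor and RAS-ERK relay or 4 other EGF-family ligands was called.

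EGFR was called higher in V1 than in V3 at 3 of its 9 probe sets. Of the 73 pathway genes 7 (9.59%) were called between these clones, near the 7.72% of all genes. All 7 were lower in V1, as were 1004 of the 1526 genes called in all. CBLB measured 4.29-fold lower and FOS 11.6-fold lower, each with a limma adjusted p of 6.78e-04. Their V1 readings of 4.51 and 3.73 lay below that array's median of 4.56 and are not shown to be above background, so these folds are not exact. EGR1 was 6.87-fold, DUSP6 2.06-fold, SPRY1 1.71-fold, SOS2 1.62-fold and ETV5 1.47-fold lower. DUSP5, SPRY2 and ERRFI1 differed by -0.08 (SE 0.11), -0.04 (SE 0.17) and -0.35 (SE 0.11). Clone 1, with high HBEGF and EGFR, read highest for EGR1 with a mean of 11.86, against 10.02 on clone 5, 10.07 on V3 and 7.29 on V1.

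**Figure D5:**
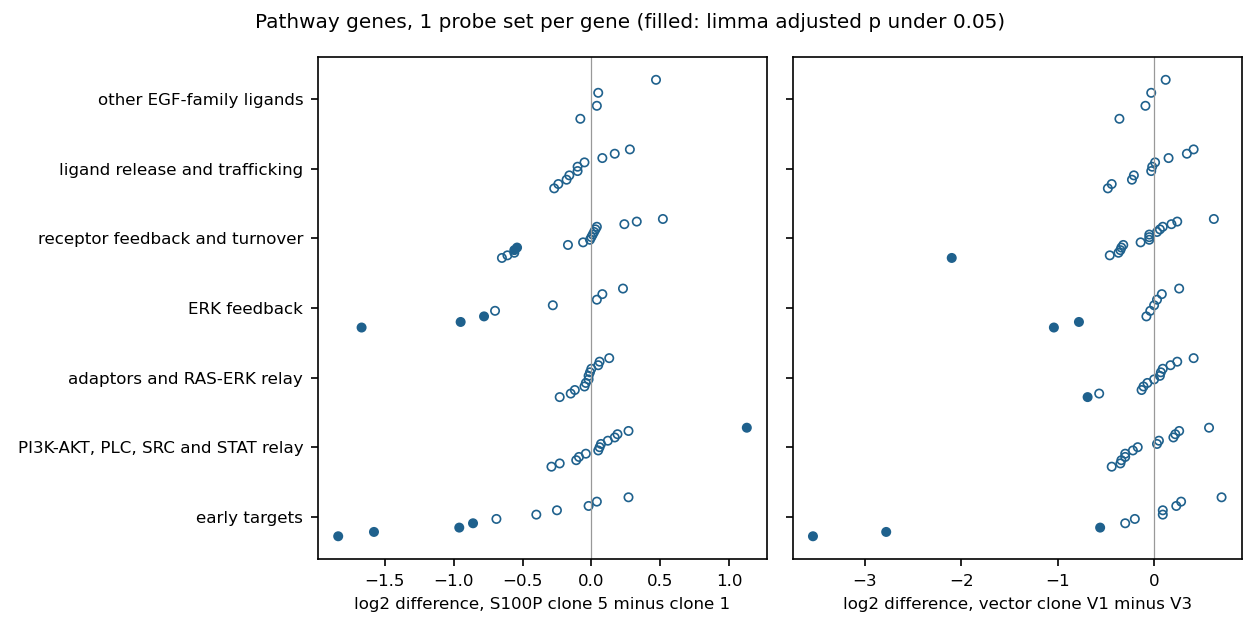
Log2 difference of each measured pathway gene (1 point per gene, by list on the y axis) for clone 5 minus clone 1 on the left and V1 minus V3 on the right, with filled points for a limma adjusted p under 0.05. On the left 9 filled points lie below 0 and 1, PIK3R1, above; on the right all 7 lie below 0.

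The genes whose pattern over the 7 arrays was most like EGFR at its representative probe set were SRGAP1 (r = 0.987), KMT2E (0.981) and NSUN4 (0.980), among 2865 genes with an SD of at least 0.3. Those most like HBEGF, the member of largest SD (0.95), were PAWR (0.992), LCOR (0.991) and KMT5B (0.989). In all, 75 genes had an r of at least 0.9 with EGFR and 167 with HBEGF, and the 7 arrays come from 4 clones, so these are descriptions.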

How the data were processed

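RNA of 7 Affymetrix arrays, 1 per sample, was read from the deposited table. The authors computed these with RMA, per the submitters' processing notes, and the deposited values were used as log2, which their range fits; the table does not state the scale. For the RMA version and any joint processing of the arrays, no statement is given in the sources used here. Differences of dim probe sets can be compressed by RMA. No detection calls were used, and precision is limited by the number of arrays. Of 54675 probe sets, 62 controls were left out.

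The arms were compared with limma 3.58.1 (with statmod 1.5.0, R 4.3.3) over all 54613 probe sets, with the clone as a random block (consensus correlation 0.287). Clones of an arm were compared in a fit with the 4 clones as fixed effects. Two-sided p-values were adjusted by Benjamini-Hochberg over all probe sets, with a threshold of 0.05. Whether a and b arrays came from separate cultures is not stated by the labels. The p-values therefore reflect only spread between these samples, possibly technical. The fits were tested on simulated data. For the arms the clones were simulated to differ by less than the spread within clones, and for the clone comparison by the added effect only. Several members differed more between clones, so the simulation does not cover the arm fit at those. Figures used matplotlib 3.10.9.

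The members and lists were chosen with earlier results of these data known. Named genes were all members, from each pathway list those that passed between the arms (at most 3) or otherwise the gene of largest difference, S100P, the RNA quality controls, and the 3 genes most like EGFR and like the member of largest SD. Pathway genes called between clones were named after their values were seen. Alternatives were the clone block, averaging of arrays, centring, quantile normalization, a filter at a mean of 5, a prior with a trend, the label letter as a block, and leaving out arrays or clones. Letters a and b did not pair the arrays: a minus b correlated between clones at 0.05, -0.08 and 0.06.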

Additional observations from a re-analysis of the deposited data

Results flagged for a closer look

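The S100P-labelled clones differed from each other at 5 member probe sets, tested as clone 5 minus clone 1 with limma. The vector arm cancels in that difference, which compares these clones and not conditions. The log2 differences were -0.61 for EGFR 201983_s_at, -1.13 for ERBB3 226213_at, -1.78 and -1.10 for HBEGF 203821_at and 38037_at, and -0.95 for NRG1 206343_s_at. In 4 further probe sets 1 of the 4 S100P-labelled arrays stood apart, with a gap to the nearest array beyond Dixon's 95% critical value for 4 samples. It was array 1b at EGFR 210984_x_at (0.938 of the range), 5b at EGFR 211607_x_at (0.839), 5b at ERBB4 233494_at (0.842) and 5a at BTC 207326_at (0.839). Chance alone gives such a gap in about 1 of 20 groups of independent values, and 38 were examined. These arrays are pairs from clones 1 and 5, and many probe sets share a gene, so that rate need not hold here.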

How the results depend on the processing

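With the arrays of a clone averaged, 0 members were called between the arms. In that fit 8 of 54613 probe sets (0.0146%) were called, against 611 in the main fit. Between the arms, members called numbered 1 without the clone block (2.02% of all probe sets called), 1 after quantile normalization again (1.21%) and 1 with the letter a or b as a replicate block (1.68%, without V1). They numbered 0 to 5 when an array was left out, 5 being without V1 (3.13%), and 2, 4 and 4 without clones 1, 5 and V3 (1.24%, 2.48% and 3.07%). With 1 clone in an arm, spread between its clones cannot enter. Called members numbered 0 to 5 for clone 5 minus clone 1 and 0 to 4 for V1 minus V3 when an array was left out. Centring, the trend and the filter changed those counts by less than 1.5 times. These arm differences turned sign, and the cause was not tested. With arrays averaged they were -0.03 and -0.07 (EGFR 210984_x_at, 211607_x_at), with the replicate block 0.15 and 0.02 (NRG1 206343_s_at, 208241_at), and with centring and quantile normalization -0.01 and -0.01 (EGFR 224999_at). Without clone 1 they were -0.17 (EGFR 224999_at), 0.19 (TGFA) and 0.07 (PIK3R1), without clone 5 -0.07 (BTC) and 0.25 (NRG1 206343_s_at), and without clone V3 -0.15, -0.66 and -0.77 (EGFR 201983_s_at, 210984_x_at, 211607_x_at). Leaving out arrays gave -0.06 to 0.05 (EGFR 224999_at), -0.05 to 0.59 (210984_x_at), -0.09 to 0.63 (211607_x_at), -0.14 to 0.07 (TGFA), -0.05 to 0.16 (BTC), and -0.09 to 0.04, -0.54 to 0.15 and -0.51 to 0.02 (NRG1 208232_x_at, 206343_s_at, 208241_at). V1 minus V3 turned with centring to -0.04 and -0.04 at EGFR 224999_at and 201984_s_at. Without single arrays it ran from -0.02 to 0.04, -0.06 to 0.08 and, at NRG1 208232_x_at, -0.18 to 0.09. Differences that round to 0.00 were given no direction.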
